A study of Mus musculus with 12 samples.

Results

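The 46 genes described here are interferon-stimulated effectors: genes that cells switch on in answer to interferon and whose products act against infection, leaving out the OAS, interferon-induced GTPase, cytosolic RNA sensor, IRF and chemokine families. They were taken by gene symbol from a list, by a rule that uses no measured value, and all 46 were found among the 54532 genes of each library. Of them, 45 passed the filter on low counts. The remaining member, Trex1, had no count in any of the 12 libraries. 

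RNA-seq had been done on monocytes sorted from mouse bone marrow as CD11b-positive cells with much Ly6C on their surface, the phenotype of classical monocytes, and cultured after the sort. The 4 groups had 3 libraries each: control mice without a stimulus, control mice with lipopolysaccharide (LPS) for 4 h, mice given succinate at 300 mM over 7 days without a stimulus, and such succinate mice with LPS for 4 h. LPS, a bacterial cell wall component, was added to the sorted cells in culture, while succinate, an intermediate of the tricarboxylic acid cycle, had been given to the animals beforehand. The study's title places the work in a model of colitis, and the sorted cells were compared to ask how succinate given to the animal moved the monocytes and their answer to LPS. Strain, age and sex of the mice, the LPS dose and the number of animals behind a group's libraries are not stated in the labels. The spread that p-values rest on may therefore be technical.

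Type I interferon binds the receptor formed by Ifnar1 and Ifnar2, whose kinases activate transcription factors, among them Stat2. Together with Irf9, Stat2 acts at the interferon-stimulated response element (ISRE) in promoters. In monocytes and macrophages, Toll-like receptor 4 senses LPS and, through the adaptor Ticam1 and the factor Irf3, induces interferon beta, which then acts on the same and neighbouring cells. The effectors that follow bind foreign RNA, deplete nucleotides, conjugate the ubiquitin-like protein Isg15 to other proteins, hold virus particles at membranes or act on chromatin.

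To show these elements, promoter windows of the RefSeq table (assembly GRCm38.p6, 250 bases before to 50 after an annotated start, total length 300) were searched on both strands for the letters GAAANNGAAA, a core form of the ISRE. Windows were found for 38 members. Mx1, Mx2, Usp18, Rtp4, Parp9, Parp14, Ifi204 and Tor3a had no entry. Of the 38 members, 15 (39.5%) held a match, against 3.99% of the 27025 genes in the table. The GAS element TTCNNNGAA was in the windows of 18.4% of members and 9.55% of all genes. The NF-kB element GGGANNTTCC was in those of 7.89% of members and 1.63% of all genes. Matches could overlap each other. A match describes the letters of the window and is not evidence of binding in these cells.

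The 6 stretches that follow are from the members that held a match and had the largest LPS rise in control mice. They are printed 5′ to 3′ on the strand of the gene, up to the start where it lies close, with the ISRE matches in capitals. Where capitals read TTTC at both ends, the match is on the opposite strand.
Rsad2, chr12:26456518-26456617, minus strand: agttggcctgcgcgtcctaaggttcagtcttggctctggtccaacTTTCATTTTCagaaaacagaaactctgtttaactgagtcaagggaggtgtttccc
Ifit1, chr19:34640740-34640858, plus strand: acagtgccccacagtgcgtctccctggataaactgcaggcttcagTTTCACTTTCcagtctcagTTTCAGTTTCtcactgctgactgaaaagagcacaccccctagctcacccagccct
Ifit3b, chr19:34607724-34607857, plus strand: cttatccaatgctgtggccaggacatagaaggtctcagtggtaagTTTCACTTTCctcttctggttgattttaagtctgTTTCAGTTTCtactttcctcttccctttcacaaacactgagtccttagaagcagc
Ifit3, chr19:34583328-34583461, plus strand: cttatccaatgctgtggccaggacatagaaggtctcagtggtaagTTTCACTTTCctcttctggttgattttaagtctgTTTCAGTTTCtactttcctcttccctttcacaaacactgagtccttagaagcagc
Isg15, chr4:156200830-156200941, minus strand: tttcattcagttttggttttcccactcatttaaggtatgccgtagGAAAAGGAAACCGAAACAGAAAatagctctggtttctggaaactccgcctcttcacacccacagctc
Ifi203, chr1:173942493-173942572, minus strand: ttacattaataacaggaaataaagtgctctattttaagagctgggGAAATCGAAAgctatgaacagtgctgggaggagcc

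Rsad2 and Ifi203 held 1 match each in the stretch shown, the 3 Ifit genes held 2, and Isg15 held 3 that overlapped into a run of 22 letters. The stretches of Ifit3 and Ifit3b were identical at 134 of 134 bases, and these neighbouring genes also share much of their transcripts. Of the members tested, the 15 with a match had a median LPS log2 fold change of 3.13 in control mice (range -0.21 to 5.69), and the 22 with a window but no match had a median of 1.90 (range -0.57 to 7.48). Ifi44, Phf11d and Cmpk2 had no match and rose, and Ifitm3 and Shisa5 held one and did not pass the test in control mice.

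Total counts ranged from 15975882 to 18306747 over the 12 libraries, and over the 14324 genes tested the standard error of a log2 comparison of 2 groups had a median of 0.19. Markers of Ly6C-high monocytes were all detected, with a summed level of 9210 to 9484 CPM (counts scaled to a library of fixed size) in control mice without LPS. A class known from earlier work on these files, set by the level of 5 genes that include S100a4 and Rpl24, separates 5 libraries from the other 7. Replicate 3 of control mice with LPS is the only LPS library in the smaller class, so results with LPS are also given without it. The rest of that class had no stimulus: libraries 2 and 3 of control mice, and the same replicate numbers of succinate mice. No LPS library of succinate mice was in it. Class and LPS therefore overlapped in part, and comparisons of LPS with no stimulus cannot fully separate them. Reads were counted without a stated use of strand, and nothing in the sources used here says how reads shared by similar genes were assigned.

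LPS raised most of these effectors in cells of control mice. Of the 45 members tested, 41 rose (edgeR quasi-likelihood test, adjusted p below 0.05), none fell and 4 passed in neither direction, while 15.3% of all genes tested rose and 14.8% fell. The median log2 fold change of the members was 2.14, against -0.00363 for all genes tested. In cells of succinate mice 37 members rose, 2 fell and 6 passed in neither direction, with 14.1% of all genes higher and 16.2% lower, and the median of the members was 1.68. All 37 were among the 41. In a bulk sample, a change in the share of cells that answer and a change in RNA per cell cannot be told apart.

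**Figure D1:**
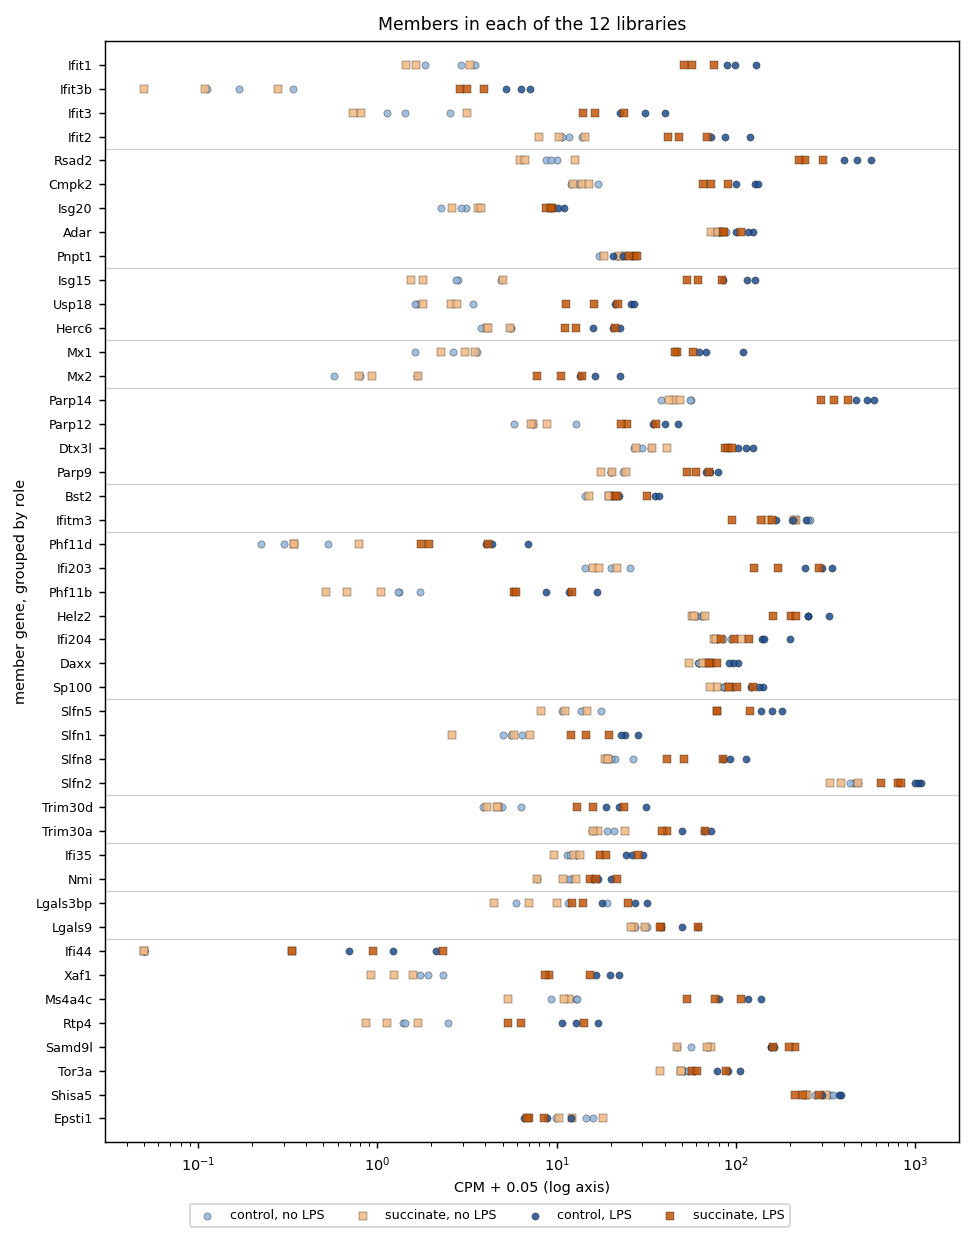
Level of the 45 tested members in each of the 12 libraries, as CPM plus 0.05 on a log axis, with 1 row per gene and horizontal lines between role groups. Blue circles are control mice and orange squares succinate mice, pale without LPS and dark with LPS. For most rows the dark points lie to the right of the pale ones. All dark squares lie to the left of all dark circles in 18 of the 45 rows, and in the others they overlap.

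The IFIT proteins bind viral RNA and restrain its translation. All 4 rose in both kinds of mice, with a median log2 fold change of 4.72 in control and 4.22 in succinate mice. Ifit1 (ENSMUSG00000034459, chr19:34640871-34650009 in GRCm38, the assembly of mm10) had 1.79, 3.43 and 2.87 CPM in the 3 libraries of control mice without LPS, and 129, 89.5 and 98.0 CPM with LPS. Succinate mice had 3.23, 1.40 and 1.59 CPM without LPS and 56.8, 51.4 and 75.3 CPM with LPS. LPS and unstimulated libraries were far apart in both kinds of mice, and all succinate LPS libraries lay below all control LPS libraries. The LPS log2 fold change was 5.29 ± 0.29 (SE, adjusted p = 5.25e-09) in control and 4.88 ± 0.29 (adjusted p = 1.38e-08) in succinate mice. Ifit2 rose by 2.95 ± 0.25 and 2.28 ± 0.24 on the log2 scale.

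Ifit3 had 40.3, 22.5 and 31.0 CPM in control and 16.2, 13.9 and 23.6 CPM in succinate libraries with LPS, so the highest succinate library was above the lowest control library. Its near-identical neighbour Ifit3b had 7.07, 5.13 and 6.28 CPM in control and 2.82, 3.10 and 3.87 CPM in succinate libraries with LPS, with no overlap. These 2 levels are uncertain, because 51.2% of the 50-base words of Ifit3 transcripts also occur in Ifit3b, and the assignment of such reads is not given in the sources used here. The LPS log2 fold changes in control mice were 4.23 ± 0.45 for Ifit3 and 5.21 ± 0.49 for Ifit3b.

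Rsad2 encodes viperin, a radical enzyme that makes a chain-terminating nucleotide, and Cmpk2, its neighbour on chromosome 12, encodes a mitochondrial nucleoside monophosphate kinase that supplies the substrate. Rsad2 (ENSMUSG00000020641, chr12:26442746-26456452) had 8.62, 10 and 9.24 CPM in control mice without LPS and 569, 399 and 471 CPM with LPS. In succinate mice the 3 libraries without LPS had 12.6, 6.19 and 6.60 CPM and those with LPS 243, 225 and 307 CPM. The unstimulated libraries of both kinds of mice overlapped, and the LPS libraries of succinate mice all lay below those of control mice. Its LPS log2 fold change was 5.69 ± 0.26 in control (adjusted p = 9.66e-10) and 4.93 ± 0.25 in succinate mice (adjusted p = 2.85e-09). In control mice this was the largest rise of any member with a count in all 4 groups. Cmpk2 rose by 3.09 ± 0.17 and 2.48 ± 0.17 on the log2 scale.

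Other enzymes of nucleic acids rose less or did not pass. Isg20, an RNA exonuclease, rose by 1.88 ± 0.20 in control and 1.46 ± 0.20 in succinate mice on the log2 scale. Adar, which edits adenosine to inosine in double-stranded RNA, rose in control mice (log2 fold change 0.49 ± 0.12, adjusted p = 0.00659) and had 0.25 ± 0.12 in succinate mice (adjusted p = 0.148). Pnpt1, a mitochondrial polynucleotide phosphorylase, passed in neither, with 0.21 and 0.31. Trex1, an exonuclease of cytosolic DNA, was at 0 counts in every library. All of its 1147 annotated exonic bases also lie in exons of Atrip on the same strand, and Atrip had mean levels of 13.1 CPM in control mice without LPS and 17.2 CPM with LPS, so a count of 0 for Trex1 cannot be read as absence of its transcript.

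Isg15 is a ubiquitin-like protein that is conjugated to other proteins and also secreted, Herc6 is its ligase in mouse, and Usp18 removes it again and dampens signalling at the interferon receptor. All 3 rose in both kinds of mice. Isg15 (ENSMUSG00000035692, chr4:156199424-156200818) had 4.86, 2.76 and 2.68 CPM in control mice without LPS and 128, 115 and 84.2 CPM with LPS. Its levels in succinate mice were 4.99, 1.75 and 1.48 CPM without LPS and 52.9, 61.4 and 83.2 CPM with LPS. The highest succinate LPS library was just under the lowest control LPS library. The log2 fold change with LPS was 4.98 ± 0.36 in control (adjusted p = 8.88e-08) and 4.59 ± 0.36 in succinate mice (adjusted p = 2.25e-07). Usp18 rose by 3.49 in control and 2.81 in succinate mice, and Herc6 by 2 and 1.73, all on the log2 scale.

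The Mx proteins are dynamin-like GTPases that block viral nucleocapsids. Mx1 (ENSMUSG00000000386, chr16:97447035-97462907) had 2.60, 3.55 and 1.56 CPM in control mice without LPS and 109, 67.5 and 61.7 CPM with LPS. Its succinate libraries had 3.47, 3.03 and 2.22 CPM without LPS and 46.7, 45.6 and 57.8 CPM with LPS. The LPS libraries of the 2 kinds of mice did not overlap, while the unstimulated ones did. Mx1 rose by 4.94 ± 0.29 in control (adjusted p = 9.51e-09) and 4.10 ± 0.28 in succinate mice (adjusted p = 5.24e-08) on the log2 scale. Mx2, which the annotation lists as a polymorphic pseudogene, rose by 4.17 ± 0.39 and 3.29 ± 0.38.

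The ADP-ribosyltransferases Parp9, Parp12 and Parp14 and the ubiquitin ligase Dtx3l, the partner of Parp9, all rose in both kinds of mice, with a median log2 fold change of 2.08 in control and 1.70 in succinate mice. Parp14 had 38.1, 56.3 and 55.4 CPM in control mice without LPS and 587, 467 and 540 CPM with LPS. Succinate mice had 44.9, 42.0 and 48.9 CPM without LPS and 296, 351 and 419 CPM with LPS. All succinate LPS libraries lay below all control LPS libraries. Its log2 fold change was 3.41 ± 0.17 in control (adjusted p = 2.85e-09) and 2.97 ± 0.17 in succinate mice (adjusted p = 1.02e-08). Parp9 and Dtx3l overlap on opposite strands over 458 exonic bases, so reads there cannot be told apart without strand.

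Among nuclear and chromatin-associated members all 7 rose in control mice, and 5 of 7 in succinate mice. Ifi203 and Ifi204 belong to the family of pyrin-domain proteins that bind DNA. Ifi203 had 14.4, 25.7 and 20.0 CPM in control mice without LPS and 343, 242 and 303 CPM with LPS, and rose by 3.89 ± 0.29 on the log2 scale. In succinate mice its LPS libraries had 126, 172 and 289 CPM, a wide spread that overlapped control, and the rise was 3.42 ± 0.29. Ifi204 was already at 84.3, 94.2 and 77.8 CPM in control mice without LPS and had 199, 140 and 144 CPM with LPS, a log2 fold change of 0.92 ± 0.17 (adjusted p = 0.000876). In succinate mice it had 107, 75.5 and 77.7 CPM without and 82.5, 97.8 and 118 CPM with LPS, so that these groups overlapped, and the log2 fold change of 0.20 ± 0.17 did not pass (adjusted p = 0.434).

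Daxx, a histone chaperone, had 61.3, 62.1 and 62.3 CPM in control mice without LPS and 103, 95.6 and 91.5 CPM with LPS (log2 fold change 0.64 ± 0.10, adjusted p = 0.000221). In succinate mice it had 67.5, 65.1 and 54.7 CPM without and 72.3, 70.6 and 78.1 CPM with LPS (0.24 ± 0.10, adjusted p = 0.0994). Helz2, a helicase and transcriptional coactivator, rose by 2.14 and 1.68, and Sp100, a nuclear body protein, by 0.58 and 0.40 on the log2 scale. The call of Sp100 in succinate mice was lost without succinate LPS replicate 2 or 3 or succinate unstimulated replicate 1 or 2 (adjusted p 0.0531 to 0.155), with only the groups compared (0.0646) and with the library class as a covariate (0.0836). The PHD finger genes Phf11b and Phf11d rose by 3.13 and 4.04 in control and by 3.49 and 2.51 in succinate mice. For Phf11b, 47.0% of 50-base words also occur in other genes, so its level is uncertain.

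The 4 Schlafen genes, which regulate growth of immune cells and translation, stand in 1 stretch of chromosome 11 and all rose in both kinds of mice. Slfn5 rose most, from 10.7, 17.6 and 13.6 CPM to 181, 138 and 158 CPM in control mice (log2 fold change 3.51 ± 0.24) and to 78.3, 78.4 and 119 CPM in succinate mice (3.02 ± 0.24). Slfn2, the most abundant of them per kilobase of exon, had 481, 454 and 433 CPM in control mice without LPS, and 1069, 1040 and 990 CPM with LPS. It had 647, 798 and 829 CPM in succinate mice with LPS. Its rise was 1.18 ± 0.14 in control and 0.92 ± 0.14 in succinate mice on the log2 scale. In Slfn2 and Slfn5 no succinate LPS library reached a control LPS library. Trim30a and Trim30d, ubiquitin ligases of the tripartite motif family, rose by 1.77 and 2.27 in control and by 1.36 and 1.98 in succinate mice.

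The pair Ifi35 and Nmi, which bind each other, rose by 1.17 and 0.76 in control and by 0.87 and 0.78 in succinate mice on the log2 scale. The beta-galactoside-binding lectin Lgals9 rose by 0.73 and 0.71, and the secreted Lgals3bp, a galectin ligand, by 1.08 and 1.25. The call of Lgals3bp in control mice was the weakest of the 41. It was lost without control unstimulated replicate 1 or 3, succinate unstimulated replicate 1, control LPS replicate 1 or 3 or succinate LPS replicate 2 (adjusted p 0.0545 to 0.153), and also with DESeq2 (0.072) and with scaling by library size alone (0.0587). In succinate mice the call of Lgals3bp was lost without succinate unstimulated replicate 1 or 2 or succinate LPS replicate 3 (0.0642 to 0.131), and those of Nmi and Lgals9 without succinate unstimulated replicate 2 or succinate LPS replicate 3 (0.0512 to 0.0815). With the library class as a covariate that of Nmi was lost too (0.0587). The call of Nmi in control mice was lost without control unstimulated replicate 2 (0.067) or control LPS replicate 1 (0.0547). Rtp4, a chaperone of receptors, rose by 2.97 and 2.85, Xaf1, an antagonist of the caspase inhibitor XIAP, by 3.32 and 3.18, and the membrane protein gene Ms4a4c by 3.26 and 3.08. Samd9l, a restraint of viral and cellular translation, rose by 1.47 and 1.60, and Tor3a, a torsin family ATPase, by 0.74 and 0.59. The succinate call of Tor3a was lost without succinate unstimulated replicate 2 (adjusted p = 0.0715) or succinate LPS replicate 3 (0.0897).

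Ifi44 had no count in the 3 libraries of control mice without LPS, and 2.07, 1.17 and 0.641 CPM with LPS, at least 21.5-fold higher than a floor of 3 counts over the group. In succinate mice it had 0, 0 and 0.284 CPM without and 0.889, 0.282 and 2.26 CPM with LPS. Its rise in succinate mice was called (adjusted p = 0.0225), and not without succinate LPS replicate 3 or succinate unstimulated replicate 1 or 2 (0.0709 to 0.117), nor with the library class as a covariate (0.116). Its fitted log2 fold change of 7.48 in control mice depends on the prior count of the fit. With Ifi44 at its bound, the median of the members remained 2.14.

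Bst2 and Ifitm3 act at membranes: tetherin, the product of Bst2, holds budding virions at the cell surface, and Ifitm3 blocks fusion of virus with endosomes. Bst2 rose in control mice (0.75 ± 0.22, adjusted p = 0.0173) and did not pass in succinate mice (0.47 ± 0.22, adjusted p = 0.126). The control call was lost without control unstimulated replicate 1 (adjusted p = 0.0789), control LPS replicate 1 (0.0582) or control LPS replicate 3 (0.0597). Ifitm3 did not rise. It had 204, 258 and 251 CPM without and 208, 166 and 244 CPM with LPS in control mice, which overlapped (log2 fold change -0.21 ± 0.19, adjusted p = 0.469).

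In succinate mice Ifitm3 had 216, 150 and 211 CPM without and 94.6, 138 and 158 CPM with LPS, and fell by 0.56 ± 0.19 on the log2 scale (adjusted p = 0.0400). The libraries still overlapped, and the call was lost without any of control unstimulated replicates 2 and 3, succinate unstimulated replicates 1 and 3, control LPS replicate 1 and succinate LPS replicates 1 and 2 (adjusted p 0.0612 to 0.161). It was also lost with only the groups compared (0.0711) and with the library class as a covariate (0.129). Epsti1 also fell in succinate mice, from 12.1, 10.3 and 18 CPM to 6.95, 6.77 and 8.45 CPM (log2 fold change -0.87 ± 0.26, adjusted p = 0.0188), with no overlap. This call was lost without succinate unstimulated replicate 3 (adjusted p = 0.0992), succinate LPS replicate 1 (0.0575) or succinate LPS replicate 2 (0.0703), and with the library class as a covariate (0.0981). In control mice Epsti1 had 9.89, 15.9 and 14.5 CPM without and 12, 6.49 and 8.72 CPM with LPS, which overlapped (-0.57 ± 0.26, adjusted p = 0.114). Shisa5, a membrane protein linked to cell death, was high throughout and passed in neither kind of mice (0.15 in control, -0.13 in succinate mice).

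Levels of different genes were compared per kilobase of exon, as mean CPM per kilobase over the 3 libraries of a group. Before LPS in control mice Ifitm3 (351), Slfn2 (274) and Shisa5 (96.5) stood above all other members, and Ifi204 (24.0) and Bst2 (20.7) followed. With LPS the order was Slfn2 (621), Ifitm3 (304), Isg15 (144), Rsad2 (111) and Shisa5 (107). Isg15 had been at position 21 and Rsad2 at 30 without LPS. Rsad2 and Shisa5 differed in this order by less than the spread of their libraries. In succinate mice with LPS the same 5 genes led, with Slfn2 at 456, Ifitm3 at 192, Isg15 at 87.0, Shisa5 at 74.6 and Rsad2 at 59.5.

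**Figure D2:**
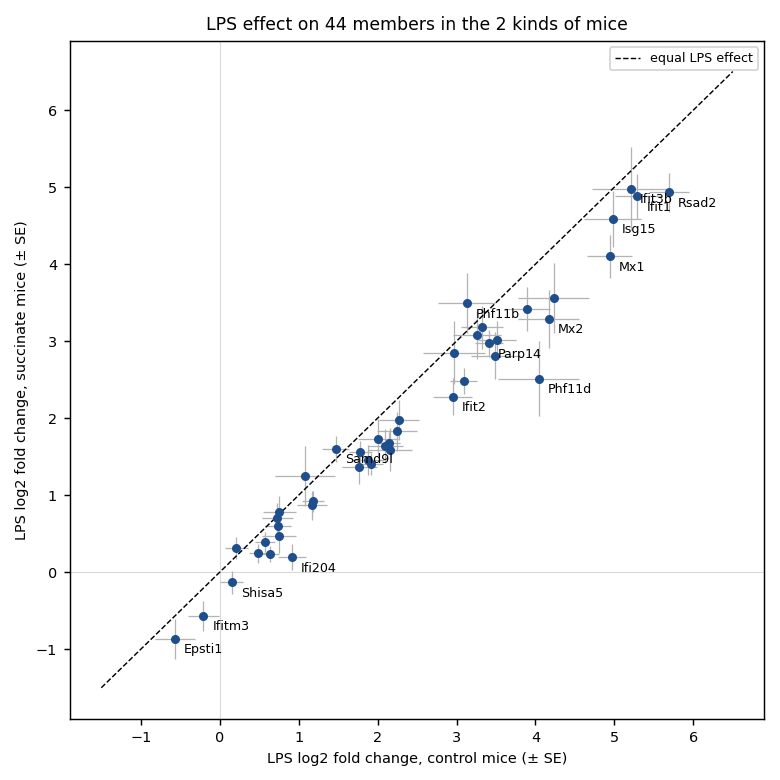
LPS log2 fold change of 44 members in control mice (x axis) and succinate mice (y axis), with bars of 1 SE and a dashed line of equal effect. Ifi44 is left out because control mice without LPS had no count. Most points lie on or under the line, from Rsad2 at 5.69 and 4.93 down to Epsti1 at -0.57 and -0.87.

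The size of the LPS effect in the 2 kinds of mice followed the same order over members. Without Ifi44, whose fitted value in control mice is over a group with no count, Pearson's r of the 44 pairs of log2 fold changes was 0.982 and Spearman's rho 0.975, as a description across genes, which are not independent replicates and were measured in the same libraries. The effect was smaller in succinate mice for 40 of 45 members, against 54.1% of all genes tested. Among the 2190 genes that rose with LPS in control mice it was smaller for 73.7%. The median difference between the 2 effects over those genes was -0.184 on the log2 scale. Those genes were chosen on control libraries that also enter this difference, so a smaller effect in succinate mice follows in part from the choice.

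The difference between the 2 LPS effects was tested as an interaction. No gene was called at an adjusted p below 0.05, in either direction, by edgeR (0% of 14324). No member was called by limma-voom or DESeq2 either. The median interaction of the members was -0.392 on the log2 scale, against -0.0255 for all genes tested, of which 54.1% were below 0. An unadjusted p under 0.05 in the negative direction was found for 7 members by edgeR, 5 by limma-voom and 8 by DESeq2, and by edgeR for 2.97% of all genes. The 7 were Ifi204 (-0.72 ± 0.25), Daxx (-0.40 ± 0.15), Cmpk2 (-0.61 ± 0.23), Dtx3l (-0.51 ± 0.20), Helz2 (-0.46 ± 0.19), Rsad2 (-0.76 ± 0.31) and Mx1 (-0.84 ± 0.39), each with an adjusted p of 1. Thus a difference in the LPS effect was not shown for any single member, also not for Adar, Ifi204, Daxx and Bst2, which passed in control mice alone. The count of 7 was 2 without control unstimulated replicate 1 (2.67% of all genes) and 18 without succinate LPS replicate 3 (4.11%). The median interaction was -0.255 without succinate LPS replicate 1 and -0.558 without succinate LPS replicate 3, the ends of its range when 1 library was left out.

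Succinate mice were then compared with control mice in cells with LPS, where most members lay lower in succinate mice. Of the 45 members 42 had a negative log2 fold change, against 52.2% of all genes tested. The median was -0.549, against -0.0142 for all genes. It was -0.138 for the 2190 genes that rose with LPS in control mice, of which 68.6% were below 0. Those genes were chosen on the same control LPS libraries, which by itself tends to move their values below 0. Mean levels of the members in succinate mice ranged from 50.5% of the control mean for Phf11d to 120% for Samd9l. The 3 members above 0 were Samd9l (0.26 ± 0.17), Pnpt1 (0.20 ± 0.14) and Nmi (0.02 ± 0.21). With scaling by library size alone the median of all genes moved from -0.0142 to 0.107, and that of the members was -0.427, with 42 again below 0.

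No member passed the adjusted threshold in this comparison. The smallest adjusted p was 0.0793, for Rsad2, and 0.0628% of all genes, 9 in number, were called lower. An unadjusted p under 0.05 in the negative direction was found for 28 of 45 members, against 8.18% of all genes tested. For 18 of 45 members all 3 succinate libraries lay below all 3 control libraries, against 10.2% of all genes. With DESeq2, 14 members were called lower (3.10% of the 10157 genes with an adjusted p), and 3 members had no adjusted p. With limma-voom only Rsad2 was called (0.237% of all genes). The 14 were Slfn2, Shisa5, Parp14, Rsad2, Ifitm3, Helz2, Ifi204, Daxx, Slfn5, Cmpk2, Slfn8, Ifit1, Ifit2 and Xaf1.

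The log2 fold changes of the 10 members with the smallest p, chosen after their values were seen, were as follows. Rsad2 was at -0.89 ± 0.20 (95% interval -1.33 to -0.46, adjusted p = 0.0793). Cmpk2 was at -0.65 ± 0.16 (adjusted p = 0.0965), and its libraries with LPS had 127, 100 and 132 CPM in control and 72.5, 65.5 and 90.5 CPM in succinate mice. Rsad2 and Cmpk2, neighbours in the genome, both had no overlap between the mice. Ifi204 was at -0.70 ± 0.17 (adjusted p = 0.107), Helz2 at -0.52 ± 0.14 (adjusted p = 0.119), and Daxx at -0.39 ± 0.10 (adjusted p = 0.128). Parp14 was at -0.58 ± 0.16 and Slfn5 at -0.79 ± 0.21 (adjusted p = 0.135 for both). Xaf1 was at -0.83 ± 0.23, Ifit2 at -0.81 ± 0.23 (adjusted p = 0.145 for both) and Ifit1 at -0.79 ± 0.22 (adjusted p = 0.154). In all 10 members the 3 succinate LPS libraries lay below the 3 control LPS libraries.

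**Figure D3:**
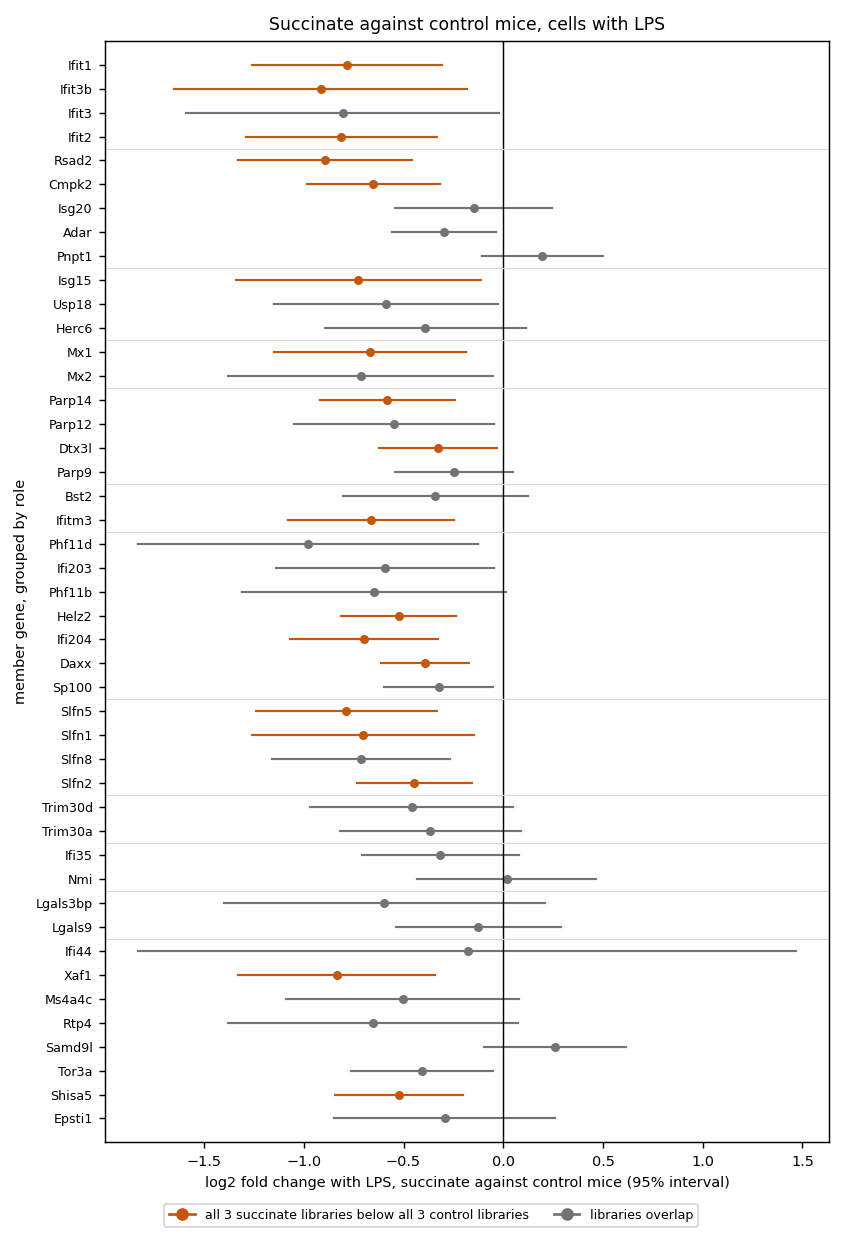
Log2 fold change of succinate against control mice in cells with LPS for the 45 tested members, as points with 95% intervals, grouped by role. Orange marks the 18 members whose 3 succinate libraries lay below all 3 control libraries. The points of 42 members lie left of 0, and those of Samd9l, Pnpt1 and Nmi lie right of it.

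By role, the median log2 fold change in cells with LPS was -0.81 for the 4 IFIT genes, -0.71 for the 4 Schlafen genes, -0.69 for the 2 Mx genes and -0.59 for the ISG15 system. It was -0.595 for the nuclear factors, -0.44 for the ADP-ribosylation group and -0.41 for the 2 Trim30 genes. All members of these 7 groups were below 0. The nucleotide and nucleic acid enzymes had a median of -0.30, the membrane factors Bst2 and Ifitm3 -0.50, the Ifi35 and Nmi pair -0.15 and the galectin pair -0.36. The 4 members that did not rise in control mice were at -0.66 ± 0.20 (Ifitm3), -0.52 ± 0.15 (Shisa5), -0.29 ± 0.26 (Epsti1) and 0.20 ± 0.14 (Pnpt1). Shisa5 had 384, 303 and 373 CPM in control and 212, 235 and 291 CPM in succinate libraries with LPS, with no overlap.

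The difference was not equal over the 3 succinate libraries. Of 45 members, 39 were below all control LPS libraries in succinate LPS replicate 1, 41 in replicate 2 and 19 in replicate 3. The same was found for 33.5%, 28.3% and 25.7% of all genes tested. In replicate 3, 23 lay within the control range and 3 above it. That library was the highest of its group for 43 members. Among the control LPS libraries replicate 1 was the highest for 37 members and replicate 2 the lowest for 36. For the 42 members with at least 10 CPM in a group, the median deviation from the control LPS mean was 0.205, -0.205 and -0.00737 in the control libraries and -0.724, -0.595 and -0.164 in the succinate libraries. Succinate replicate 3 was therefore inside the spread of the control libraries by this measure, slightly above control replicate 2.

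Without succinate LPS replicate 3, 8 members were called lower (Rsad2, Ifi203, Ifi204, Slfn5, Cmpk2, Slfn8, Ifit2 and Xaf1) with 1.23% of all genes lower, and the median of the members was -0.786. Without succinate LPS replicate 1 it was -0.403, with 0 called. Within the larger library class, that is without control LPS replicate 3, it was -0.527 with 42 below 0 and 0 called. With the class as a covariate 3 members were called lower, Rsad2, Ifi204 and Isg15, with 1.19% of all genes. Without succinate unstimulated replicate 1, only Rsad2 was called among the members, with 0.162% of all genes. The count of members below 0 stayed between 41 and 43 over all these settings. The count of members with an unadjusted p under 0.05 in the negative direction was 15 without control LPS replicate 1 (5.04% of all genes) or succinate LPS replicate 1 (4.50%), and 16 without succinate LPS replicate 2 (6%). It was 39 without succinate LPS replicate 3 (9.89%).

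**Figure D4:**
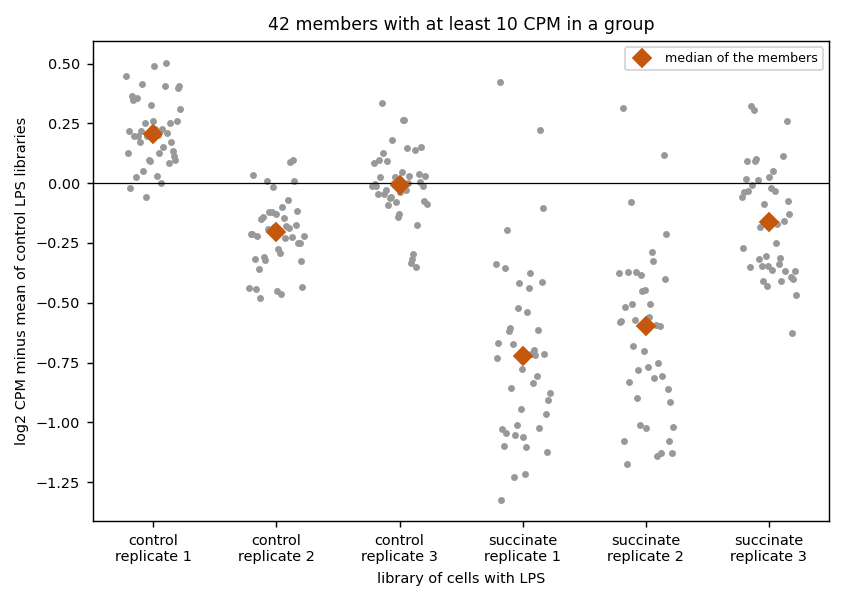
Log2 CPM of 42 members in each LPS library, as the difference from the mean of the 3 control LPS libraries, with 1 grey point per member and an orange diamond at the median of the members. The medians of succinate replicates 1 and 2 (-0.724 and -0.595) lie below every control library, and that of replicate 3 (-0.164) lies between control replicates 2 and 3.

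Other measures of the libraries moved with succinate in cells with LPS, and their part in the result was not tested. The share of mitochondrially encoded counts was 1.24% ± 0.02 (SD, n = 3) in succinate and 1.03% ± 0.04 in control mice with LPS. The share of ribosomal protein genes was 3.44% ± 0.09 and 2.80% ± 0.08. Both shares were thus higher in succinate mice. The summed level of 6 B-cell markers was 22.2 to 29.9 CPM in succinate and 12.1 to 19.4 CPM in control libraries with LPS. That of 6 T and NK cell markers was 32.0 to 43.0 against 18.8 to 31.2 CPM. Nkg7 made up most of this sum, with 31.2, 38 and 40.5 CPM in succinate and 17.6, 29.9 and 28.8 CPM in control libraries. Of the other T and NK cell markers only Trac was tested (log2 fold change 0.09). For 9 Ly6C-high monocyte markers the sum was 5750 to 8006 against 8027 to 8708 CPM. For plasmacytoid dendritic cells, known producers of interferon, 7 markers summed to 61.9 to 78.8 against 74.9 to 86.6 CPM, which overlap. Runx2 and Tcf4 made up most of this sum, and the markers did not move together. Siglech (log2 fold change 0.79) and Pacsin1 (0.26) were above 0. Runx2 (-0.34), Ccr9 (-0.23), Tcf4 (-0.04) and Cox6a2 (-0.47) were below it. The sum of 9 neutrophil markers, some of which monocytes also express, was 12596 to 14752 against 10964 to 14361 CPM, again overlapping. Conventional dendritic cell markers summed to 19.1 to 19.6 against 21.4 to 28.8 CPM, macrophage markers to 827 to 1026 against 1007 to 1098 CPM, Ly6C-low monocyte markers to 693 to 791 against 659 to 786 CPM, and erythroid markers to 7.58 to 56.6 against 9.63 to 33.9 CPM. In single markers, all succinate LPS libraries lay above all control LPS libraries for 2 of 6 B-cell and 2 of 6 T and NK cell markers, and below them for 3 of 9 Ly6C-high monocyte markers (F13a1, Lyz2 and Cd14), 2 of 7 macrophage (C1qb and C1qc) and 1 of 7 plasmacytoid dendritic cell markers (Runx2). In the Ly6C-low monocyte, conventional dendritic cell and neutrophil lists no single marker was set apart. No tested marker of these 9 lists was called in this comparison. Only 3 of 7 macrophage, 2 of 6 T and NK cell and 3 of 5 erythroid markers were tested. For plasmacytoid dendritic cells 6 of 7 were tested and for conventional ones 5 of 6, while the other lists were tested in full.

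Without LPS no member passed the test between the mice. No gene was called in either direction (0% of 14324). Among the members, an unadjusted p under 0.05 was found by edgeR for 2, Phf11b (-1) and Xaf1 (-0.69), both with an adjusted p of 0.958, and for 1.67% of all genes in that direction. Without succinate unstimulated replicate 1 the count was 7 (2.60% of all genes). It was 0 without unstimulated replicate 2 of control (1.34%) or succinate mice (0.644%). Without control unstimulated replicate 3 it was 1 (1.02%), and without control unstimulated replicate 1 it was 3 (1.65%). Without succinate unstimulated replicate 3 it was 4, with a share of 5.93% of all genes. Such a p was found for 2 members by DESeq2 and 0 by limma-voom. The median of the members was -0.129 and 32 of 45 were below 0, against 0.00577 and 48.6% for all genes tested. This median was -0.0503 without succinate unstimulated replicate 2 and -0.0545 without control unstimulated replicate 2, with 27 members below 0 in both cases. For Xaf1 the unstimulated libraries had 1.68, 2.28 and 1.87 CPM in control and 1.53, 0.875 and 1.19 CPM in succinate mice. They did not overlap. Of the 5 members with the smallest p between the mice with LPS, without LPS Rsad2 had -0.14, Cmpk2 -0.04, Ifi204 0.02, Helz2 -0.06 and Daxx 0.01. Others that were low with LPS had lower values already without it, such as Ifit3b (-0.69) and Ifit1 (-0.38), while Phf11d had 0.55; none of these 3 passed, and their unstimulated libraries overlapped.

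**Figure D5:**
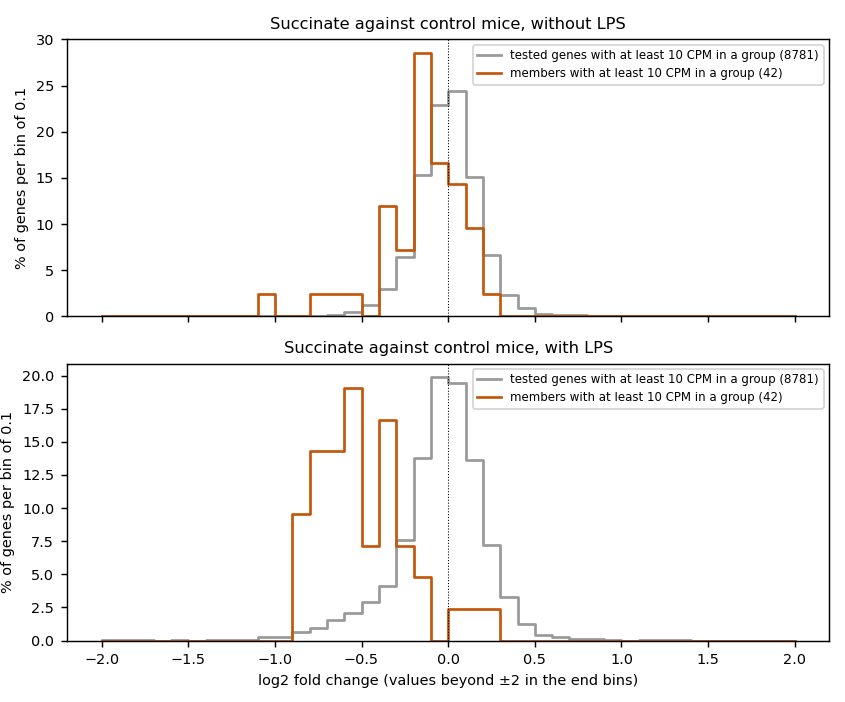
Distribution of log2 fold changes of succinate against control mice without LPS (upper panel) and with LPS (lower panel), as the percent of genes per bin of 0.1, for genes with at least 10 CPM in a group. The orange line is the 42 members and the grey line the 8781 genes of that level. With LPS the members' median is -0.536 and that of the genes -0.0213.

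The genes that lead to interferon and pass on its signal were followed as a list of 39 symbols, of which 33 were tested. In control mice 21 rose with LPS and 2 fell, and in succinate mice 16 rose and 2 fell. The ligand Ifnb1 was near the limit of detection: it had 0 counts in all 6 libraries without LPS, 0.305, 0.195 and 0.449 CPM in control and 0.209, 0.113 and 0.484 CPM in succinate libraries with LPS. With LPS it was at least 5.26-fold higher in control and at least 4.63-fold higher in succinate mice than a floor of 3 counts over the group. Its LPS libraries overlapped between the mice, and a difference in Ifnb1 was not detectable at this depth. Ifng had 0 counts in control mice with LPS and 3 counts in succinate mice with LPS.

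Both receptor chains were abundant. Ifnar1 had 350, 324 and 359 CPM in control and 229, 277 and 278 CPM in succinate libraries with LPS, with no overlap (log2 fold change -0.40, adjusted p = 0.126). Ifnar2 was at -0.20 (adjusted p = 0.472). Ifnar1 rose with LPS in control mice by 0.57 and had 0.27 in succinate mice, which did not pass. In control mice Stat2 rose by 1.02 and Irf9 by 0.94 on the log2 scale. In succinate mice Stat2 rose by 0.59, while Irf9 had 0.43 and did not pass. In cells with LPS, succinate against control mice, Stat2 was at -0.31 and Irf9 at -0.40 (adjusted p = 0.357 and 0.326).

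Irf7, the factor that amplifies interferon production and is itself interferon-stimulated, had 6.36, 10.3 and 9.86 CPM in control mice without LPS and 56.6, 37.8 and 47.9 CPM with LPS. In succinate mice with LPS it had 26.7, 22.9 and 39.8 CPM, overlapping with control (-0.67, adjusted p = 0.268). Its LPS rise was 2.42 in control and 2.32 in succinate mice. The feedback inhibitors Socs1 and Socs3 rose by 3.29 and 5.06 in control and by 2.20 and 4.45 in succinate mice, and the kinase Ikbke by 3.11 and 2.96. Irf8, a factor of monocyte and dendritic cell development, fell by 1.26 and 1.61 on the log2 scale. In cells with LPS 26 of the 33 genes (78.8%) were below 0 in succinate mice, against 52.2% of all genes tested. Their median was -0.198, and 0 were called. By edgeR 13 had an unadjusted p under 0.05 in the negative direction, against 8.18% of all genes.

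In the families that had been left out of the members, 27 of 32 tested genes rose with LPS in control mice and 26 in succinate mice. In cells with LPS 21 of the 32 (65.6%) were below 0 in succinate mice, with a median of -0.331 and 0 called. That share was 52.2% over all genes tested and 68.6% over the genes that rose with LPS in control mice. The genes that rose were chosen on the same control libraries, so their share is not a neutral reference. For 4 of the 32 (12.5%) all succinate libraries lay below all control libraries, against 10.2% of all genes tested. They lay above them for 3 of the 32, and for 996 of the 14324 genes tested. These 2 lists share their libraries with the members and their values are set beside them as a description.

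Members lie on 14 chromosomes. Of the 46, 21 lie within 100 kb of another member, in 8 stretches, which hold the 4 Schlafen genes (171.3 kb), the 4 IFIT genes (99.3 kb), Parp14 with Dtx3l and Parp9 (139.7 kb), Mx1 with Mx2 (113.9 kb), Trim30a with Trim30d (98.8 kb), Phf11b with Phf11d (44.5 kb), Rsad2 with Cmpk2 (37.1 kb) and Shisa5 with Trex1 (21.2 kb). Exons of another gene cover at least 10% of the exonic bases of 5 members: Trex1, Ifi35, Adar, Rtp4 and Herc6. At least 10% of the 50-base words of 13 members also occur in transcripts of another gene, most for Trex1 (95.8%), Ifit3 (51.2%), Phf11b (47.0%) and Ifit3b (45%). Ifi204 shares 20.0%, Slfn8 14.6% and Ifi203 12.4%.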

How the data were processed

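RNA was measured in 12 libraries of sorted mouse monocytes. The deposited files hold raw whole-number counts of reads per gene. The submitters' processing notes name Trim Galore and the build mm10. Aligner, counter, annotation, strand setting and versions: not given in the sources used here. Groups were taken from the sample titles. No 2 libraries of a group held the same counts within sampling noise (lowest chi-square per degree of freedom 6.42).

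Genes were filtered with filterByExpr of edgeR 4.0.16 (R 4.3.3), which left 14324 of 28563 genes with a count, and libraries were scaled with its TMM method. All 12 libraries entered 1 quasi-likelihood model with a mean for each group (common BCV, the biological coefficient of variation, 0.167) and 5 contrasts, and p-values were adjusted over all genes tested by the Benjamini-Hochberg method. A gene was called at an adjusted p below 0.05. CPM values use the TMM-scaled library size, and intervals are at 95%. Fits were checked on simulated data. Alternatives were RLE scaling, library size alone, no filter, a stricter filter (1 CPM in 6 libraries), DESeq2 1.42.0, limma-voom (limma 3.58.1), only the groups compared, a replicate block, the library class as a covariate and leaving out each library.

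Members, gene lists, the library class and tests were chosen with earlier results of these data known. Members called in any comparison could be named with values, the members that did not rise with LPS likewise, the others by range and count, and pathway genes when called or when they were ligands, receptors, Stat2, Irf9 or Irf7. 1 gene selected by this rule is not reported here. Replicate numbers were checked as pairs by the correlation of deviations from the group means. By a minimum of 0.1 in all 3 pairs they paired the unstimulated libraries of control and succinate mice (0.116 to 0.26), where the block changed no call of a member, and no other 2 groups. Gene positions, exons and shared 50-base words came from GENCODE M21 (GRCm38) and promoter windows from RefSeq (GRCm38.p6). Marker lists for 9 cell types were summed per library.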

Additional observations from a re-analysis of the deposited data

How the results depend on the processing

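With LPS against no stimulus in control mice, the number of members called higher stayed between 38 and 41 over all 21 alternatives, and in succinate mice between 31 and 38. The number called lower in control mice was 0, and 1 with no filter. In succinate mice it was 2, and 1 with only the groups compared, 0 with the library class as a covariate and 0 to 2 when 1 library was left out. Without LPS no member was called between the mice, except 1 called lower with no filter. With LPS no member was called lower in succinate mice by the chosen fit. No filter gave 18, DESeq2 14, limma-voom 1 and the class covariate 3, and leaving out 1 library gave 0 to 8, with 8 without succinate LPS replicate 3 and 1 without succinate unstimulated replicate 1. The cause was not tested. Over all genes, 9 were called lower in that comparison, 573 with no filter, 30 with the stricter filter, 315 with DESeq2, 34 with limma-voom, 171 with the class covariate and 0 with library size alone or only the groups compared. Over all 21 alternatives 41 to 43 members were below 0, and their median lay between -0.786 and -0.403. In the interaction no member was called in any alternative, and 34 to 43 members were below 0. Shisa5 with LPS in succinate mice lay between -0.272 and 0.00242 when 1 library was left out, the latter without succinate unstimulated replicate 3 (adjusted p = 0.994).

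Replicate numbers were shared between groups, and 7 of 18 same-numbered pairs of libraries had a correlation of deviations over 0.1 (range -0.129 to 0.377), including all 3 pairs of unstimulated control and succinate libraries. In that comparison the replicate block called 0 genes, as without it. The libraries of the other comparisons share a number only. With the replicate block 0 members were called in the comparison of mice with LPS, and 72 genes were lower and 5 higher. At this depth and with 3 libraries a group, a log2 difference near the median standard error of 0.19 could not be told from 0. Much larger differences between the mice with LPS also went uncalled, such as Rsad2 at -0.89 ± 0.20 (edgeR, adjusted p = 0.0793).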
